A study of Homo sapiens with 2 samples.

Results

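Floor plate-like cells were defined here as cells of day 42 serotonin neuron (SN) cultures that held at least 1 unique molecular identifier (UMI, 1 captured transcript) of SHH or CORIN. Cells with 3 or more of the cycling genes MKI67, TOP2A, CENPF, UBE2C, NUSAP1 and BIRC5 were left out. The rule found 171 of 6385 cells that passed the quality limits in the library labelled WT (2.68%, exact 95% interval 2.30% to 3.10%) and 121 of 7573 in the library labelled FKO (1.60%, 1.33% to 1.91%). That is 292 of 13958 cells in all. A stricter set that also held a SPON1 UMI counted 106 cells labelled WT and 57 labelled FKO. Since SHH and CORIN UMIs chose the members, both genes are described and not tested, and so is every other gene of these cells set against the remaining cells of the same library.

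The floor plate is the ventral midline of the developing neural tube, a strip of glia-like progenitors that secretes Sonic hedgehog (SHH) and patterns the cells beside it. It also guides axons at the midline through secreted netrin, slit and F-spondin proteins, and the transcription factor FOXA2 marks it and helps to maintain it. In the hindbrain, SNs arise next to it from ventral progenitors. CORIN, a membrane serine protease, is used as a surface marker of floor plate cells.

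Both libraries came from the human embryonic stem cell line H9 (WA09) with an EGFP reporter at TPH2, the gene of the serotonin-synthesising enzyme. The WT cells carried no further edit. The FKO cells carried an indel in FOXA2 made by end joining after a Cas9 cut, in a line grown from a picked clone. Cells of both genotypes were differentiated toward SNs with purmorphamine (PUR), a SHH pathway agonist, and the sort at day 42 took cells positive for EGFP, so the shares above are shares of sorted cells. The PUR dose of these libraries is not given in the sources used here.

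There was 1 library per condition and no replicate. All differences between libraries are therefore given without a test, and every interval is an exact 95% interval that covers counting error only. Deposited UMIs summed to 123064653 in 11052 barcodes labelled WT and 70588747 in 8806 labelled FKO. FOXA2 transcript was higher in the library labelled FKO. Counts of 3' ends do not show an indel, so this value cannot check the label in either direction. Libraries are therefore named by their labels and every direction rests on them. The libraries shared 21 barcodes, of which 0 were members. Doublet scores marked 12.9% of members and 9.93% of the other cells labelled WT, and 14.05% and 7.74% labelled FKO.

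SHH lies on chromosome 7 (155799980 to 155812463, GRCh38.p14) and CORIN on chromosome 4 (47594001 to 47838067). The promoters of both rule genes are shown because they define the set, and 1 of SULF2 because it held the searched FOXA motif. Each is 300 bases from the RefSeq table of GRCh38.p14, 5' to 3' on the gene's strand, the minus strand in each case, with a motif match in capitals.
SHH, chr7:155812414-155812713: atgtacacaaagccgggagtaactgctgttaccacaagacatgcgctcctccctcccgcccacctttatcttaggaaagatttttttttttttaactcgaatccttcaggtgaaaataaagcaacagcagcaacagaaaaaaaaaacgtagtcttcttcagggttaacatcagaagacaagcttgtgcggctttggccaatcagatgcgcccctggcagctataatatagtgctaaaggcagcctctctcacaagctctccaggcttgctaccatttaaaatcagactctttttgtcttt
CORIN, chr4:47838018-47838317: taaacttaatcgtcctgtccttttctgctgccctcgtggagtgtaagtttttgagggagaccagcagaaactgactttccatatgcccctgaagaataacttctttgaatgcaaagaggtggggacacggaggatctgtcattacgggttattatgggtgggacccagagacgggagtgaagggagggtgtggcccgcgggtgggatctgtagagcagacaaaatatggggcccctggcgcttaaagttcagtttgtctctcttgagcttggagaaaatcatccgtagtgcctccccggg
SULF2, chr20:47786578-47786877: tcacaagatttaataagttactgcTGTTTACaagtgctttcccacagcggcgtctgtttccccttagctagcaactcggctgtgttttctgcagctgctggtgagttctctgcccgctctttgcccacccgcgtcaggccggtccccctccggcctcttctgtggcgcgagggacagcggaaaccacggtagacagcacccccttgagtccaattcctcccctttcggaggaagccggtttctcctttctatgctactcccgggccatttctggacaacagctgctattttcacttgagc
Promoters of 13 of 19 floor plate genes were matched in that table, with 23 windows in all, since several genes have more than 1 start. The FOXA motif TGTTTAC, searched on both strands, was in 1202 of 35116 promoter windows of this length (3.42%) and in 1 of the 23, which is the window shown of the 4 of SULF2, at position -226 from the start. The GLI motif GACCACCCA, the form bound by the transcription factors of the Hedgehog pathway, was in 83 windows (0.236%) and in 1 of the 23, which is 1 of the 5 of SEMA3B. The SHH and CORIN windows held neither run of letters, and a match is a description of letters only.

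SHH itself was sparse. The 171 members labelled WT held 472 SHH UMIs in 133 cells, with at most 16 in 1 cell, and the 121 labelled FKO held 169 in 92 cells, with at most 9. CORIN gave 261 UMIs in 104 cells labelled WT and 53 in 41 cells labelled FKO. Both genes were detected together in 66 members labelled WT (38.6%) and 12 labelled FKO (9.92%). SHH alone admitted 67 and 80 members, and CORIN alone 38 and 29. At the threshold, 74 members labelled WT and 76 labelled FKO held a single UMI of the pair, and 46 and 4 held 6 or more. On the other side of the rule, 14 and 11 cells with SHH or CORIN were left out as cycling. Among them 2 cells in each library lay just outside with 3 cycling genes, while 3 and 5 members lay just inside with 2.

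The share of members rose with depth. In the library labelled WT it was 1.72% in the decile of cells with the fewest UMIs and 6.57% in the decile with the most. In the library labelled FKO it was 1.06% and 3.43%, with the lowest share, 0.264%, in decile 5. Members had medians of 15342 UMIs labelled WT and 9490 labelled FKO, against 12592 and 7092 in the other cells. When each cell was thinned to 2000 UMIs, the rule found 58 of 6342 cells labelled WT (0.915%, 0.695% to 1.18%) and 39 of 7457 labelled FKO (0.523%, 0.372% to 0.714%). The share thus remained higher in the library labelled WT at equal depth, with intervals that overlapped slightly. Whether that difference exceeds the spread between cultures was not tested.

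**Figure D1:**
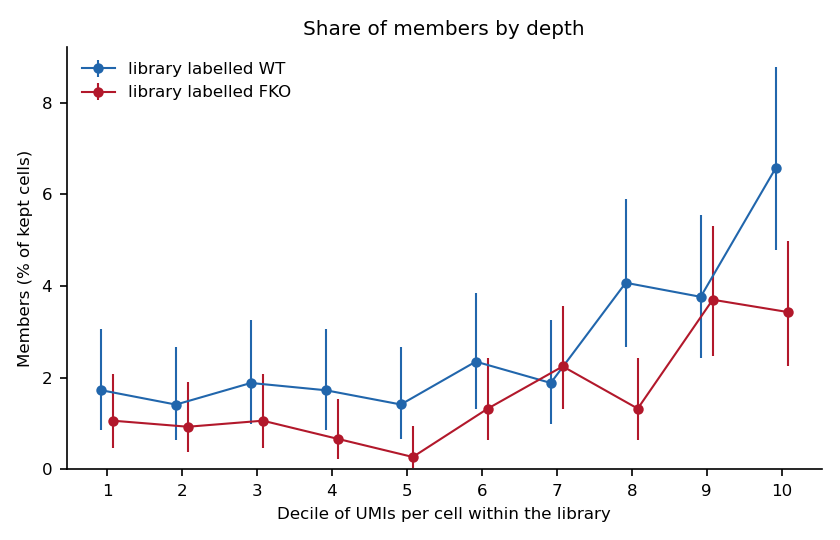
Members as a percent of kept cells (y axis) in each decile of cells ranked by UMIs per cell (x axis), per library, with exact 95% binomial intervals as bars. The share was 1.72% in decile 1 and 6.57% in decile 10 labelled WT, and 1.06% and 3.43% labelled FKO.

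SHH and CORIN were also counted in cells rich in TPH2, some of which are members themselves. Among cells with at least 2 TPH2 UMIs, which had medians of 13505 UMIs labelled WT and 8741 labelled FKO, SHH or CORIN was detected in 45 of 3204 (1.40%, 1.03% to 1.88%) labelled WT and 29 of 2375 (1.22%, 0.819% to 1.75%) labelled FKO. The kept cells were shallower, with medians of 12646 and 7122 UMIs and member shares of 2.68% and 1.60%. Thinned to 2000 UMIs, the shares in TPH2-rich cells were 0.250% (0.108% to 0.492%) labelled WT and 0.169% (0.0460% to 0.431%) labelled FKO. The member shares at that depth were 0.915% (0.695% to 1.18%) and 0.523% (0.372% to 0.714%), and the intervals overlapped labelled FKO. Members detected by 1 UMI made up 1.16% of the kept WT-labelled cells and 1.004% of the FKO cells. The part of free RNA in these single-UMI members was not tested.

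The secreted and transcriptional markers of the floor plate were far higher in members than in the other cells of the same library. SPON1 (F-spondin, an extracellular protein that promotes axon outgrowth; chromosome 11, 13962723 to 14268133) stood at 667 CPM (a gene's summed UMIs scaled to the summed UMIs of all genes in the same cells) in members labelled WT and 5.98 in the other cells, a log2 ratio of 6.80 (6.66 to 6.95). In the library labelled FKO it stood at 418 and 19.0 CPM, a log2 ratio of 4.46 (4.32 to 4.60). NTN1 (netrin-1, the midline axon attractant; chromosome 17, 9003087 to 9244000) was at 100 CPM in members and 2.16 in others labelled WT, and at 193 and 8.17 labelled FKO. FOXA2 (chromosome 20, 22580998 to 22585490) was at 39.4 and 3.10 CPM labelled WT and at 242 and 17.7 labelled FKO. The log2 ratios of members over others were 5.53 and 4.56 for NTN1 and 3.67 and 3.78 for FOXA2. SPON1, NTN1 and FOXA2 were therefore each higher by at least 2-fold in both libraries.

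These markers did not reach all members. SPON1 was detected in 62.0% of members labelled WT (45.0% thinned to 2000 UMIs, against 1.02% of others) and 47.1% of those labelled FKO (32.8%, against 2.51%). FOXA2 was detected in 52 of 171 members labelled WT (30.4%) and 70 of 121 labelled FKO (57.9%). At least 2 of SPON1, NTN1 and FOXA2 were detected in 93 members labelled WT (54.4%) and 57 labelled FKO (47.1%), against 0.483% and 2.52% of the other cells. None of the 3 was detected in 60 members labelled WT (35.1%) and 37 labelled FKO (30.6%). The name floor plate-like therefore rests on these markers in the pooled members and does not describe every cell that the rule took. Some genes of other lists, described below, were also at least 2-fold higher in members. Labelled WT these were 4 of 6 cilia genes, 2 of 7 roof plate and choroid genes and 5 of 9 mesenchymal genes. Labelled FKO they were 4, 2 and 2, with 1 mesenchymal gene lower. The medians of the lists are not ranked, since each covers only genes of at least 10 CPM in members or others.

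**Figure D2:**
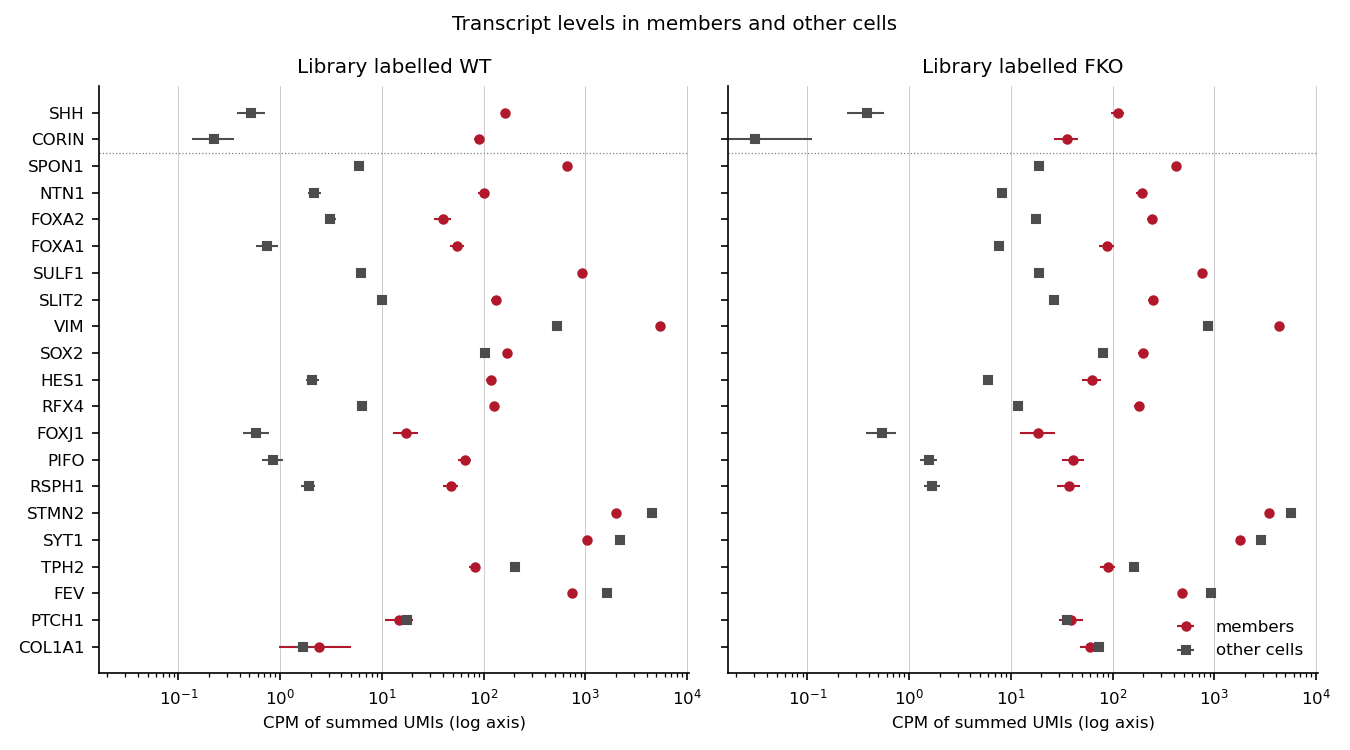
Pooled CPM (x axis, log scale) of rule genes (above the dotted line) and other genes in members (red circles) and the other cells (grey squares) of the libraries labelled WT (left) and FKO (right), with exact 95% Poisson intervals as bars. SPON1 stood at 667 against 5.98 CPM labelled WT and 418 against 19.0 labelled FKO, while STMN2 was lower in members in both.

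Over all genes with at least 10 CPM in members or others, 876 of 9065 (9.66%) were at least 2-fold higher in members labelled WT and 395 (4.36%) at least 2-fold lower. Labelled FKO, 671 of 10229 (6.56%) were higher and 152 (1.49%) lower. The median log2 ratio of all these genes was -0.13 labelled WT and -0.06 labelled FKO. Of the 17 further floor plate genes, 12 passed the level limit labelled WT, of which 10 were at least 2-fold higher and 0 lower, with a median of 3.69. Labelled FKO 13 passed, 12 were higher and 0 lower, and the median was 3.50. The limit is passed through whichever group is higher, and the list was drawn up with earlier results known, so these counts describe the members.

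Among the transcription factors, FOXA1, a paralogue of FOXA2, stood at 55.0 CPM in members and 0.749 in others labelled WT, and at 87.1 and 7.69 labelled FKO. LMX1A, which marks the midbrain floor plate, was near 0 in both libraries, with 1.04 and 1.33 CPM in 2 members each. FERD3L, a ventral midline bHLH factor, was low as well, at 3.46 CPM in 8 members labelled WT and 5.99 in 5 labelled FKO. NKX6-1, which marks ventral progenitors more broadly, was at 13.5 CPM in members and 9.12 in others labelled WT and at 9.98 and 7.95 labelled FKO.

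Among guidance and signalling genes, the slit ligands, which repel axons that have crossed the midline, differed from each other. SLIT2 stood at 131 and 10.1 CPM in members and others labelled WT and at 249 and 26.7 labelled FKO, and SLIT1 at 131 and 27.7 and at 164 and 47.8. SLIT3 was at 17.0 and 16.7 CPM labelled WT and at 19.3 and 35.1 labelled FKO, so it was not higher by 2-fold in either library. SULF1, an extracellular sulfatase that edits heparan sulfate and through it the reach of secreted ligands, was at 925 and 6.22 CPM labelled WT and 758 and 18.7 labelled FKO. Its paralogue SULF2, of which a promoter is printed above, was at 53.3 and 21.6 and at 91.1 and 32.1 CPM. EFNB3, an ephrin ligand of the midline, was at 160 and 47.6 and at 198 and 79.9 CPM. WNT5A, a ligand of non-canonical WNT signalling, was at 7.96 and 0.725 CPM labelled WT and at 23.3 and 1.78 labelled FKO. The repellent SEMA3B stayed below 1 CPM in members of both libraries.

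Pooled members combined these markers with a progenitor and radial glial programme, which did not reach every member. Labelled WT, progenitor genes made up a median of 0.101% of UMIs in single-UMI members and 0.936% in members with 2 or more. The other cells held a median of 0.080%. Labelled FKO these medians were 0.192%, 0.783% and 0.098%. Of 19 progenitor genes, 15 passed the level limit labelled WT and 12 were at least 2-fold higher, with a median log2 ratio of 2.22. Labelled FKO 17 passed and 15 were higher, with a median of 2.49, and 0 were lower in either library. VIM, an intermediate filament of radial glia, stood at 5391 and 527 CPM in members and others labelled WT and at 4341 and 861 labelled FKO. HES1, a Notch effector that holds cells undifferentiated, was at 119 and 2.08 CPM labelled WT and 62.5 and 6.02 labelled FKO. RFX4, a factor of neural tube patterning and cilia, was at 128 and 6.39 and at 182 and 11.8 CPM. SOX2 was less set apart, at 170 and 104 CPM labelled WT and at 200 and 81.0 labelled FKO, so the other cells held its transcript as well. HES4 was alike in members and others, with log2 ratios of -0.13 and 0.06.

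Genes of motile cilia were among the highest in members relative to others. FOXJ1, the master regulator of motile ciliogenesis, stood at 17.3 and 0.583 CPM in members and others labelled WT and at 18.6 and 0.536 labelled FKO. PIFO, which acts at the ciliary base, was at 65.4 and 0.844 CPM and at 41.2 and 1.56, and RSPH1, of the axonemal radial spoke, at 47.8 and 1.90 and at 37.2 and 1.69. Of 6 cilia genes, 4 passed the level limit in either library and all 4 of these were at least 2-fold higher, with medians of 4.77 labelled WT and 4.59 labelled FKO. At least 1 of FOXJ1, PIFO and RSPH1 was detected in 105 members labelled WT (61.4%) and 49 labelled FKO (40.5%).

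Neuronal and serotonergic transcripts were lower in members. Of 17 neuronal genes, 16 passed labelled WT, 10 were at least 2-fold lower and 0 higher, and the median log2 ratio was -1.06. Labelled FKO all 17 passed and all were below the other cells, but 0 by 2-fold, and the median was -0.64. STMN2, a microtubule regulator of growing axons, stood at 2022 and 4482 CPM in members and others labelled WT and at 3408 and 5671 labelled FKO. SYT1, the synaptic calcium sensor, was at 1030.1 and 2178 and at 1799 and 2902 CPM. Of 12 serotonergic genes 11 passed in each library, and 9 were at least 2-fold lower labelled WT (median -1.19) and 1 labelled FKO (median -0.71). TPH2 was at 82.0 and 202 CPM labelled WT and at 89.8 and 163 labelled FKO, and FEV, the serotonergic selector factor, at 736 and 1626 and at 480 and 918. MAOA, a monoamine oxidase, was the exception labelled WT, at 11.8 CPM in members and 8.22 in others.

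TPH2, whose promoter drives the sorted reporter, was detected in 73 members labelled WT (42.7%) and 47 labelled FKO (38.8%). TPH2 and SPON1 were found in the same cell in 32 members labelled WT and 20 labelled FKO. How many of these cells held RNA of another cell was not tested. Without the marked doublets the median of the neuronal genes was -1.17 labelled WT and -0.76 labelled FKO.

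Members were not alike, and their levels differed with the number of UMIs that admitted them. In the library labelled WT, SPON1 stood at 66.5, 675, 786 and 1313 CPM in members with 1, 2, 3 to 5 and 6 or more UMIs of SHH and CORIN, while STMN2 fell from 3636 to 769 CPM. TPH2 stood at 147 CPM in the single-UMI members and 39.7 in those with 6 or more. In the library labelled FKO, SPON1 stood at 206, 925, 379 and 1130.4 CPM over the same bins, without a steady order, and the last bin held 4 cells. Labelled WT, 58 of the 74 single-UMI members (78.4%) had none of SPON1, NTN1 and FOXA2, whereas 44 of the 46 members with 6 or more UMIs (95.7%) had at least 2 of them. Labelled FKO, 35 of 76 single-UMI members (46.1%) had none. Members with more UMIs of the pair were also deeper, with medians of 18002 UMIs in the bin of 6 or more and 13262 in the single-UMI bin labelled WT, and the part of depth in these values was not tested.

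**Figure D3:**
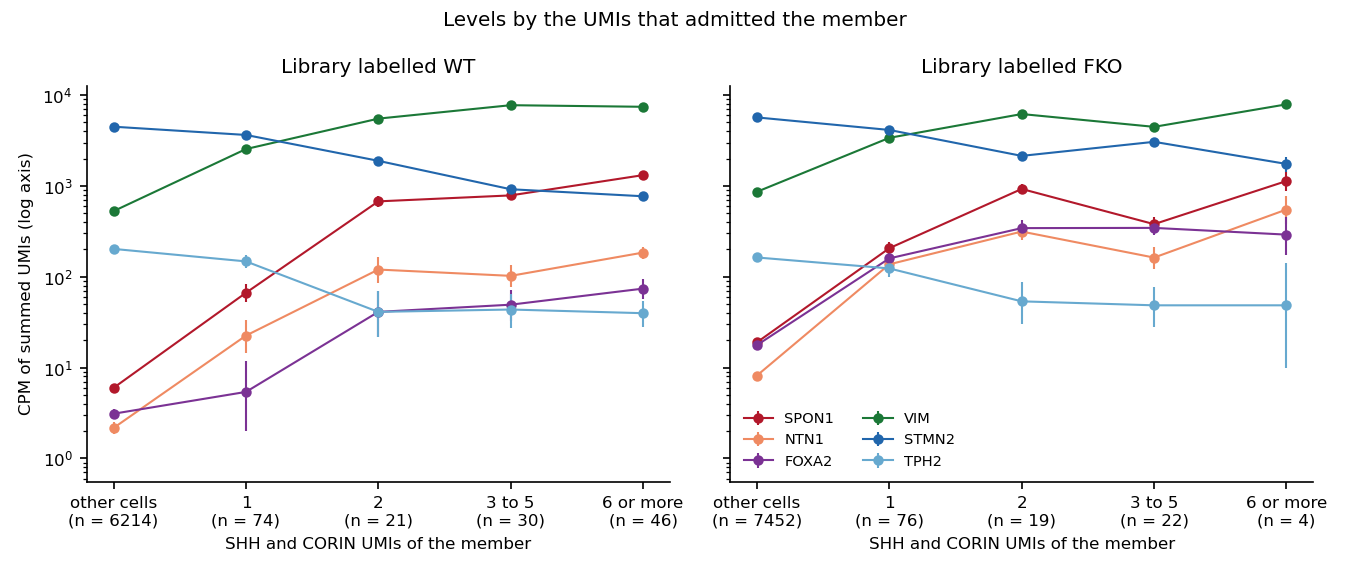
Pooled CPM (y axis, log scale) of marker genes in members grouped by their UMIs of SHH and CORIN (x axis), for the libraries labelled WT (left) and FKO (right), beside the other cells. SPON1 stood at 66.5 CPM in members with 1 UMI and 1313 in those with 6 or more labelled WT, and at 206 and 1130.4 labelled FKO.

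Levels also differed between members grouped by the gene that admitted them. Members with both SHH and CORIN held 1222 CPM of SPON1 and 964 of STMN2 labelled WT, and 993 and 2254 labelled FKO. Members with SHH alone held 296 CPM of SPON1 labelled WT and 397 labelled FKO. Members with CORIN alone held 168 and 79.5 CPM of SPON1 and 4046 and 4917 of STMN2, and 71.1% and 65.5% of them had none of SPON1, NTN1 and FOXA2. Members with both genes held at least 2 UMIs of the pair by definition, so all single-UMI members had SHH alone or CORIN alone. The part of UMI number in these differences was not tested. Cells admitted by CORIN alone held the least SPON1 of these 3 sets in both libraries. CORIN is also expressed outside the floor plate, and the identity of these cells was not tested.

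Members were also described cell by cell. In the median member labelled WT, neuronal genes made up 0.446% of UMIs (0.0699% to 2.15% over cells), against a median of 1.41% in the other cells. Labelled FKO the median member held 1.36% (0.0765% to 3.51%), against 2.07%. A cell was then called separate when its neuronal share was below the 5th percentile of the other cells and its floor plate share above their 95th, limits chosen after the values were seen. This held for 94 of 171 members labelled WT (55.0%) and 43 of 121 labelled FKO (35.5%), and for 49 and 91 of the other cells. Neither limit was passed by 56 members labelled WT (32.7%) and 47 labelled FKO (38.8%). Among members with 2 or more UMIs of SHH and CORIN, 86 of 97 labelled WT and 25 of 45 labelled FKO were separate, against 8 of 74 and 18 of 76 with a single UMI. The stricter members with SPON1 were separate in 91 of 106 cells labelled WT (85.8%) and 34 of 57 labelled FKO (59.6%), although SPON1 is itself 1 of the floor plate genes counted.

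Of all cells with FOXA2, 58 of 239 labelled WT (24.3%) and 79 of 575 labelled FKO (13.7%) held SHH or CORIN. Cells with FOXA2 and without SHH or CORIN numbered 178 labelled WT and 481 labelled FKO, with fewer than 3 cycling genes. Their SPON1 stood at 7.09 CPM labelled WT and 69.4 labelled FKO, and their STMN2 at 4526 and 5201. SPON1 in these cells was close to the 5.98 CPM of the other cells labelled WT and above the 19.0 CPM of those labelled FKO. Members with FOXA2 held more SPON1 than members without it, at 1003.5 against 487 CPM labelled WT and 569 against 89.1 labelled FKO. Cycling cells held SHH or CORIN in 14 of 49 (28.6%) labelled WT and 11 of 94 (11.7%) labelled FKO, at medians of 22541 and 12700 UMIs, which is deeper than the TPH2-rich cells. Thinned to 2000 UMIs these were 4 of 49 (8.16%, 2.27% to 19.6%) and 1 of 92 (1.09%, 0.0275% to 5.91%).

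Genes of the receiving side of the Hedgehog pathway were mostly low in members. Of 17 pathway genes, 4 passed the level limit labelled WT and 8 labelled FKO, of which 1 and 4 were at least 2-fold higher in members and 0 lower, with medians of 0.10 and 0.95. PTCH1, the SHH receptor and a target of the pathway, stood at 14.9 and 17.5 CPM in members and others labelled WT and at 39.2 and 35.3 labelled FKO. GLI1, the transcriptional readout of the pathway, was at 0.346 CPM in members labelled WT, from 1 cell, and at 3.33 labelled FKO, from 4 cells. HHIP, which binds and traps SHH, was at 0.692 and 1.21 CPM labelled WT and at 27.9 and 3.16 labelled FKO, where 1 of the 10 members with it gave 35.7% of its UMIs. The receptor-side genes SMO, the signal transducer, and BOC, a co-receptor, were higher in members at low levels, at 7.96 and 1.20 CPM for SMO and 7.27 and 0.642 for BOC labelled WT. LRP2, an endocytic receptor that binds SHH, was at 63.7 and 5.65 CPM labelled WT and at 39.2 and 7.23 labelled FKO. Members thus held SHH transcript with PTCH1 close to the level of the other cells in both libraries.

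Genes were also named by the size of the difference. The 15 genes with the highest ratio in both libraries included SERTM1, TXLNB, SULF1, CFAP126, F5, TFF3, PIFO, CCN2, CD36, DYNLT5, NTN1, RSPH1, SPON1 and FLNC. SERTM1, a small membrane protein, stood at 45.7 and 0.273 CPM in members and others labelled WT and at 34.6 and 0.552 labelled FKO. TFF3, a secreted trefoil peptide, was at 835 and 8.29 CPM labelled WT and at 132 and 4.67 labelled FKO. CFAP126 and DYNLT5, a cilium protein and a dynein light chain, were at 60.9 and 47.4 CPM in members labelled WT and at 33.3 and 23.3 labelled FKO. CCN2, a matricellular target of YAP signalling, was at 111 and 165 CPM in members, with 18.7% and 19.8% of its UMIs from 1 cell. These 15 ratios ranged from 4.65 to 7.38 labelled WT and from 4.36 to 5.97 labelled FKO.

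The 10 genes lower in members of both libraries included CALB1, DDX25, GALNTL6, DKK2, SHOX2, MIR4500HG, CRYBA2, CRABP1 and ASPHD1. CALB1, a neuronal calcium buffer, stood at 88.9 and 239 CPM in members and others labelled WT and at 87.8 and 205 labelled FKO. CRABP1, which binds retinoic acid, was at 46.7 and 112 and at 47.2 and 100.85 CPM, with 43.7% of the UMIs of members labelled FKO from 1 cell. All 10 ratios lay between -2.08 and -1.07 in both libraries, a smaller range than that of the genes above.

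Of 8727 genes compared in both libraries, 438 were at least 2-fold higher in members of both, which is 61.7% of the 710 higher labelled WT and 85.9% of the 510 higher labelled FKO. A further 34 were at least 2-fold lower in both and 4 went in opposite directions by 2-fold.

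The 5 genes whose ratio of members over others was highest labelled WT relative to FKO, among those that met the limits of the naming rule, were LUM, DCN, COL3A1, FN1 and LGALS1, which encode matrix proteins or a lectin that binds them. LUM and DCN, small proteoglycans of collagenous matrix, stood at 268 and 198 CPM in members labelled WT, against 2.82 and 1.19 in others, and at 29.3 and 43.9 in members labelled FKO, against 14.96 and 9.56. LUM was detected in 92 members labelled WT (53.8%) and 23 labelled FKO (19.0%), and DCN in 69 (40.4%) and 18 (14.9%). COL3A1, a fibrillar collagen, was at 83.4 and 8.93 CPM labelled WT and at 19.955 and 41.5 labelled FKO. FN1, fibronectin, was at 55.7 and 1.58 CPM labelled WT and at 100 and 51.5 labelled FKO. LGALS1, the lectin, was at 53.6 and 8.93 and at 33.3 and 90.2 CPM, with 39.4% of the UMIs of members labelled WT from 1 cell. For FN1 and LGALS1 the members' levels were within 2-fold of each other and the other cells differed.

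Markers of mesenchymal cells were counted as a whole beside this. Labelled WT, 5 of 9 such genes passed the level limit and all 5 were at least 2-fold higher in members, and the list summed to 596 CPM in members and 17.9 in others. Labelled FKO, 7 passed, 2 were higher and 1 lower, and the sums were 256 and 248 CPM. The defining collagens COL1A1 and COL1A2 were at 2.42 and 3.81 CPM in members labelled WT, and PDGFRA and PRRX1 had 0 UMIs there. Labelled FKO, COL1A1 and COL1A2 were at 59.9 and 54.5 CPM, with 47.8% and 62.2% of the UMIs from 1 cell. Of cells with COL1A1, COL1A2 and COL3A1 together, 1 of 4 labelled WT and 2 of 99 labelled FKO held SHH or CORIN. The part of such cells in the matrix genes was not tested.

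The choroid plexus transcript TTR, which encodes a secreted thyroid hormone carrier, stood at 462 CPM in 92 members labelled WT, against 2.63 in others, and at 10.6 in 8 members labelled FKO, against 2.42. RSPO3, a WNT agonist, was at 30.8 and 0.226 CPM labelled WT and at 3.33 and 1.01 labelled FKO. The roof plate genes MSX1, MSX2, GDF7 and BMP6 were at or below 1.38 CPM in members labelled WT, and labelled FKO MSX1 was at 12.6 CPM in 13 members, against 2.82 in others. Of the 7 roof plate and choroid genes 2 passed the level limit in each library and both were at least 2-fold higher in members, with medians of 7.27 labelled WT and 2.15 labelled FKO. Endoderm and notochord, tissues that also express SHH and FOXA2, were checked through their own factors, and SOX17, GATA4, CDX2, TBXT and NOTO had 0 UMIs in the members of both libraries.

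Set against each other without the other cells, members labelled FKO were at least 2-fold higher than members labelled WT in 2556 of 10026 genes (25.5%) and lower in 309 (3.08%). The ratio of FKO to WT had a log2 median of 0.48 over these genes in members and of 0.48 over the 9665 genes compared in the other cells, the shift against which a gene's ratio is read. FOXA2 was higher labelled FKO by 2.62 (2.31 to 2.93) in members and by 2.51 in others. SPON1 fell by 0.67 on the log2 scale in members (-0.81 to -0.54) and was higher by 1.66 (1.51 to 1.82) in others. TTR fell by 5.44 in members (-6.25 to -4.74). NTN1 was higher by 0.95 (0.71 to 1.19) in members and by 1.92 in others. FABP7, a lipid-binding protein of radial glia, was at 475 CPM in members labelled FKO and 86.5 labelled WT, and PTPRZ1, a phosphatase of the same cells, at 243 and 56.1. MEIS1, a homeobox factor, was at 20.6 and 11.4 CPM. Of the serotonergic genes, 6 of the 11 that passed were at least 2-fold higher in members labelled FKO and 0 lower, with a median of 1.01 (0.44 in the other cells), among them SLC6A4, the serotonin transporter, at 1.84 and SLC18A2, the vesicular monoamine transporter, at 1.85. Of the 17 neuronal genes 6 were higher and 0 lower, with a median of 0.93 (0.53 in the other cells). TPH2 was at 0.13 (-0.18 to 0.44) and FEV at -0.62 (-0.74 to -0.49). The mix of members also differed between the libraries. Single-UMI members made up 62.8% of those labelled FKO and 43.3% of those labelled WT, and separate cells, as called above, 35.5% and 55.0%. The part of this mix in the pooled ratios was not tested. The 17 floor plate genes gave a median of 0.49 over the 14 that passed, close to the shift of all genes, and of 1.18 in the other cells. The ratios in members moved with thinning and with the mitochondrial limit, both of which also changed the members. Thinned to 2000 UMIs, with 58 and 39 members left, SPON1 was at -1.45, NTN1 at 0.25, FOXA2 at 1.57 and TPH2 at 0.89, and with at most 5% mitochondrial UMIs they were at -1.52, 0.30, 1.42 and 1.29.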

How the data were processed

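Single-cell RNA was measured in 1 library labelled WT and 1 labelled FKO (10x Genomics 3' v3). The deposited values are raw UMI counts per gene and barcode, which the authors made with Cell Ranger on GRCh38, version 7.0 in the submitters' processing notes and 7.1.0 in the matrix header. The gene annotation release is not given in the sources used here. Quality limits on a barcode were a minimum of 1000 UMIs, a minimum of 500 genes and a mitochondrial share of up to 10%. Members and lists were chosen with earlier results of these data known. UMIs were summed over cells per library and scaled to CPM without a pseudocount, and a gene was compared at 10 CPM or more in members or others. Intervals were exact Poisson, Clopper-Pearson or conditional ratio intervals at 95%. Genes with 0 UMIs were set to a floor of 3 UMIs for ratios. Reads of the 3' end do not separate a gene from overlapping genes or close paralogues.

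Scrublet in scanpy 1.11.5 (Python 3.11.15, numpy 2.4.6, scipy 1.17.1) scored doublets in each library, and the highest scores were marked at 0.8% per 1000 barcodes. They were kept, except in an alternative without them. For equal depth each cell was thinned to 2000 UMIs, which left out 43 cells labelled WT and 116 labelled FKO, with 2 members in each. Named genes are the top 15 and bottom 10 by ratio in the library where its size was smaller. These moved the same way in both libraries with 20 CPM or more in the higher class. A further 5 in each direction had the widest difference in ratio between libraries, with 20 CPM or more in members of either library and 20 UMIs or more in members of both. Genes of 18 lists are named as well, and a few genes that meet these rules are not reported here. Alternatives changed the mitochondrial limit, the rule, doublets, depth, pooling, scaling and the level limit. The procedures were tested on simulated data. No p-value is given, since no test between conditions is possible with 1 library per condition.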

Additional observations from a re-analysis of the deposited data

Results flagged for a closer look

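NKX2-2, a ventral progenitor factor, went in opposite directions in members of the libraries, at 5.54 CPM against 9.50 in others labelled WT and 21.9 against 8.58 labelled FKO, and the log2 ratios differed by 2.13 (FKO less WT). Both values labelled WT lie below the level limit of 10 CPM, with 16 UMIs in members. COL3A1, described above, went the other way, with a difference of -4.28. With 1 library per condition neither difference was tested.

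No comparison above used cells above the mitochondrial limit. Those with 10% to 20% mitochondrial UMIs entered only an alternative with a limit of 20%, and those with more entered none. Cells of both bands also met the SHH or CORIN rule. Labelled WT, 61 of 2818 cells with 10% to 20% mitochondrial UMIs (2.16%, 1.66% to 2.77%) and 19 of 1407 with over 20% (1.35%, 0.815% to 2.10%) did so, against 2.68% of the kept cells. Labelled FKO, 8 of 752 cells with 10% to 20% (1.06%, 0.460% to 2.09%) did so, against 1.60%. With over 20% it was 1 of 263 (0.380%, 0.00963% to 2.10%). SPON1 was also detected in 31, 6, 3 and 0 of these cells.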

How the results depend on the processing

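Over 23 results, 171 of 250 alternatives stayed within counting error or 1.5 times the count, 77 moved and 2 reversed. The reversals were of SOX2 in members, FKO over WT, which was 0.24 and became -0.11 with at most 5% mitochondrial UMIs and -0.47 after thinning. At most 5% mitochondrial UMIs left 22 members labelled WT and 53 labelled FKO, and gave labelled WT a member share of 6.11%, a floor plate median of 3.13 and a neuronal median of -1.67. The ratio of members to others for TPH2 labelled WT moved from -1.30 to -2.32 at that limit, to -2.63 after thinning and to -2.30 with at least 2 UMIs of the rule genes, and labelled FKO from -0.86 to -1.39 after thinning and -1.68 with at least 2 UMIs. That for FOXA2 labelled WT moved from 3.67 to 2.57 with at most 5% mitochondrial UMIs. At least 2 UMIs of SHH and CORIN gave member shares of 1.52% labelled WT and 0.594% labelled FKO, a floor plate median of 4.28 labelled WT, neuronal medians of -2.02 and -1.003, and 1061 higher genes labelled FKO. A rule on SHH only, with or without CORIN, gave shares of 2.08% and 1.21% and a neuronal median of -1.41 labelled WT. A rule on CORIN only, with or without SHH, gave shares of 1.63% and 0.541% and a neuronal median of -0.50 labelled FKO. Without marked doublets the neuronal medians were -1.17 and -0.76. Thinning gave shares of 0.915% and 0.523%, a floor plate median of 4.75 and a neuronal median of -1.71 labelled WT, and 2119 and 3336 higher genes, since few UMIs remained in 58 and 39 members. A limit of 20 CPM gave 535 and 401 higher genes, and 5 CPM gave 1025 labelled FKO, as fewer or more low genes were compared. No paired analysis was possible because each condition had 1 library.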

Other observations

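Of 9 genes of DNA replication, 5 passed the level limit labelled WT with a median log2 ratio of members over others of 0.11 and 0 at least 2-fold higher. Labelled FKO, 6 passed with a median of 0.87 and 2 higher, among them TYMS, which makes thymidylate, at 22.6 CPM in members and 6.38 in others. Between the members of the libraries, 5 of 6 were at least 2-fold higher labelled FKO, with a median log2 ratio of 1.23 (0.49 in the other cells), where 25.5% of all genes were higher. The rule took cells with 3 or more cycling genes out of the members and not out of the other cells. CRB2, an apical polarity protein of neuroepithelium, was at 30.8 and 4.25 CPM labelled WT and at 39.9 and 3.19 labelled FKO. AQP4, the water channel of astrocyte and ependymal membranes, was at 7.96 CPM in 10 members labelled WT and 7.32 in 5 labelled FKO, while GFAP was found in 0 and 2 members.

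EN1, a midbrain and anterior hindbrain factor, was at 46.0 CPM in members and 72.4 in others labelled WT and at 89.1 and 159 labelled FKO. Of 7 stress genes, 1 labelled WT, ATF3, and 0 labelled FKO were at least 2-fold higher in members. HCRT, which encodes the neuropeptide orexin, was at 206 CPM in 7 members labelled FKO, with 61.9% of its UMIs in 1 cell, and at 6.92 CPM labelled WT.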
